A study of Danio rerio with 2 samples.

Results

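Guidance molecules and cadherins of sorted zebrafish neural crest cells were taken as the genes whose symbol begins with sema, plxn, nrp1, nrp2, efna, efnb, epha, ephb or pcdh, or with cdh and a digit. A gene also needed at least 10 unique molecular identifiers (UMIs, each counted as 1 captured transcript) over both libraries. The rule gave 63 of the 18723 genes in the table, 130 of which carry such a symbol and 12248 of which reach the same minimum. The 63 were 12 semaphorins, 9 plexins, 3 neuropilins, 6 ephrins of class A, 3 ephrins of class B, 5 Eph receptors of class A, 5 of class B, 8 cadherins and 12 protocadherins. Of these, 43 had at least 30 UMIs and 20 had fewer. The members nearest the minimum were epha4b, CDH13 and PCDH20 with 11 UMIs each, and the nearest genes outside it were a second EPHB3 gene (ENSDARG00000103576) with 9 UMIs and pcdh8, PLXNC1, sema3aa, PCDH17 and cdh5 with 8 each.

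The study sorted cells that carried a green reporter of mitfa, a pigment cell transcription factor gene, and a red reporter of crestin, a neural crest gene, from AB wild-type embryos at 24 hours post fertilisation. The ErbBi group came from treated embryos, and ErbBi is taken to mean a block of the ErbB receptors through which neuregulin signals reach crest cells; the other group was left untreated. Both groups carry both reporters, and each group is 1 10x Genomics 3' library, so library and treatment cannot be told apart and no difference has a replicate check. The dose, the length of treatment and the number of embryos pooled are not given in the sources used here.

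Neural crest cells leave the neural tube and travel along set routes, and the families described here act in that journey. Semaphorins are ligands that mostly repel and are read by plexins, with neuropilins as the binding partners for the secreted class 3 forms; ephrins and Eph receptors are both bound to membranes and signal where cells touch. Cadherins hold like cells together through catenins, and a switch in which cadherins a cell makes accompanies the departure of crest cells from the neural tube. Protocadherins are related surface proteins that adhere more weakly and sort cells.

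There were 348 ErbBi cells with 1113172 UMIs in all, a median of 2732.5 per cell, and 999 untreated cells with 7242348 UMIs, a median of 7099 per cell. The 63 genes made up 1526 UMIs in the ErbBi library and 7183 in the untreated library, or 1.37 of every 1000 UMIs in ErbBi and 0.992 in untreated cells. Counts of UMIs were summed and divided by the library or class total to give CPM, the count scaled to a fixed total. Intervals are 95% and cover counting error only. A gene is called higher or lower where its ratio of CPM is at least 2-fold and the interval of the ratio does not hold 1. CPM values are compared between libraries and classes for the same gene and not between genes. In a sum over many cells, fewer cells with a transcript and less of it per cell cannot be told apart. The 2 libraries shared 6 cell barcodes, and without those cells 17 members, in place of 19, were called higher over all cells. The share of all genes called without those cells is not given here, so the 17 cannot be set against a background.

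Cells were clustered without the 63 genes. A cluster was named only from markers. Melanoblast-like cells, precursors of the black pigment cells, numbered 7 in the ErbBi library and 217 in the untreated library. Xanthoblast-like cells, precursors of the yellow pigment cells, numbered 25 in the ErbBi library and 154 in the untreated library, and neural tube-like cells 19 in the ErbBi library and 39 in the untreated library. Mesenchyme-like cells, led by twist1a, PRRX1 and DLX2, were 148 cells or 42.5% of the ErbBi library and 86 cells or 8.61% of the untreated library. They came mostly from different clusters in the 2 libraries: cluster 5 held 139 ErbBi and 9 untreated cells, and cluster 8 held 9 ErbBi and 77 untreated cells. Clusters 3, 4, 6, 7 and 9 stay unnamed. Where a member is said to be highest in a class, classes of at least 30 cells in that library were ranked. For most members the interval of the highest class overlaps that of the next, so such a rank is a description only.

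The neural crest label was checked with 8 crest markers, summed. These stood at 890 CPM in the ErbBi library and 1201 CPM in the untreated library. They were highest in cluster 3 of the ErbBi library (1360 CPM, against 1347 CPM in cluster 3 of the untreated library) and in cluster 6 of the untreated library (1530 CPM), and lowest in neural tube-like cells, at 261 CPM in ErbBi and 276 CPM in untreated cells. Cluster 3 was led by krt4, PRDM12, WNT11 and FOXD3, cluster 6 by EGFP and HOXD9, and cluster 9 by fabp4a and col18a1a. Cluster 7 was led by CEBPD and BNC2, and its melanoblast markers summed to 28330 CPM in ErbBi cells and 10550 CPM in untreated cells. Neural tube markers summed to 1409 CPM in ErbBi and 5486 CPM in untreated neural tube-like cells. Cluster 3 held 1165 CPM of them in ErbBi and 1513 CPM in untreated cells. The ErbBi neural tube-like cells also held mesenchyme markers at 1148 CPM and neuron markers at 1131 CPM. In the untreated ones, mesenchyme markers were at 144 CPM and neuron markers at 829 CPM. The name is thus less sure for the ErbBi cells. The files hold no measure of movement, so cells are called by their class and not as migrating.

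Over all cells, 19 of the 63 genes were called higher in the ErbBi library and 1, SEMA3F (ENSDARG00000011163), was called lower, while 43 were not called. Among all 12248 genes tested the same rule called 12.3% higher and 2.71% lower. The members' share called higher was 30.2%. Ratios were above 1 for 43 members and below 1 for 14, and 6 members with 0 ErbBi UMIs (EPHB2, CDH13, PCDH11X, PCDH7, pcdh1g3 and PCDH20) had no ratio. These 6 had 11 to 17 untreated UMIs each. With the floor of 3 counts that stands in for 0, they could not be called lower. The share over all genes was not matched to the members on UMI count. The median log2 ratio was 0.81 over members and 0.24 over all genes, so that many genes shift upward with this scaling. With the 4 classes of at least 30 cells in both libraries given the same weight in each library, 10 members were called higher, beside 9.12% of all genes. This weighting leaves out every other class, melanoblast-like and xanthoblast-like cells among them.

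**Figure D1:**
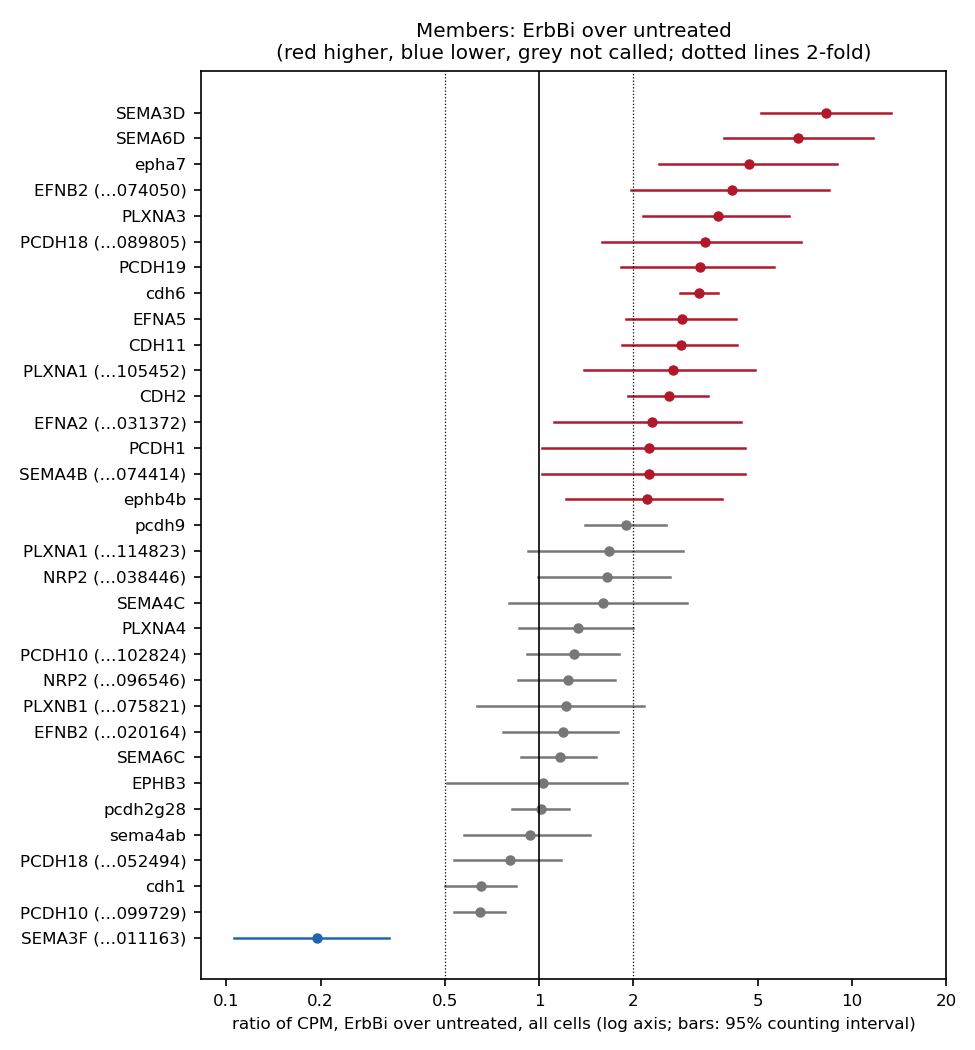
Ratio of CPM, ErbBi over untreated, over all cells, on a log axis, for members that are among the 24 with the most UMIs or that were called with at least 30 UMIs; points are ratios and bars 95% counting intervals from 1 library each. SEMA3D stands highest at 8.23 and SEMA3F (ENSDARG00000011163) lowest at 0.195, with cdh6 at 3.24 carrying the narrowest interval of those called.

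Semaphorins divided into a form that was lower in the ErbBi library and 4 that were higher. Of all genes, 2.71% were called lower and 12.3% higher. SEMA3F (ENSDARG00000011163), a secreted semaphorin whose mouse counterpart repels crest cells that carry neuropilin-2, had 14 UMIs in 11 ErbBi cells and 468 UMIs in 201 untreated cells. Its level was 12.6 CPM (6.88 to 21.1) in the ErbBi library and 64.6 CPM (58.9 to 70.8) in the untreated library. The ratio was 0.195 (0.106 to 0.330), a level 5.14-fold lower in ErbBi cells, and the 2 Poisson intervals do not overlap. The other SEMA3F gene (ENSDARG00000055373) had only 1 ErbBi and 17 untreated UMIs and was not called.

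By class, the SEMA3F (ENSDARG00000011163) difference was called in cluster 7 only, among 4 classes compared. There, SEMA3F (ENSDARG00000011163) had 5 UMIs in 60 ErbBi cells (25.7 CPM) and 59 UMIs in 59 untreated cells (149.9 CPM), a ratio of 0.172 (0.0537 to 0.424). The gene had 12 of those 59 untreated UMIs in 1 cell. In cluster 3 it had 0 UMIs in 51 ErbBi cells, against 34 UMIs (38.4 CPM) in 124 untreated cells. With the floor of 3 counts in place of 0 it was 1.7-fold lower and was not called. The interval of the ratio there was 0 to 0.763. In cluster 6 it had 1 UMI in ErbBi cells and 33 in untreated cells, with 8 of the 33 in 1 cell. The ratio there was 0.218, and its interval (0.00535 to 1.3) holds 1. Mesenchyme-like cells had 2 UMIs of SEMA3F (ENSDARG00000011163) in each library, or 3.88 CPM in ErbBi and 2.58 CPM in untreated cells. The 7 melanoblast-like ErbBi cells held 3 UMIs, or 115 CPM (23.6 to 335), and the untreated ones stood at 102 CPM. With the same class weights in both libraries the log2 ratio of SEMA3F (ENSDARG00000011163) was -2.54. That value covers only the 4 classes compared and leaves out the melanoblast-like cells. Without the mesenchyme-like class the log2 ratio was -1.84, beside -2.36 over all cells.

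The 4 semaphorins called higher were SEMA3D, SEMA6D, SEMA4B (ENSDARG00000074414) and sema6ba. SEMA3D, a secreted semaphorin, had 43 UMIs (38.6 CPM) in ErbBi cells and 34 UMIs (4.70 CPM) in untreated cells, a ratio of 8.23 (5.13 to 13.3). SEMA6D, a transmembrane semaphorin, stood at 27.0 CPM in ErbBi cells and 4.004 CPM in untreated cells, a ratio of 6.73 (3.90 to 11.6). Both were also called higher inside the mesenchyme-like class, where SEMA3D was at 52.3 CPM in ErbBi and 20.7 CPM in untreated cells and SEMA6D at 27.1 CPM in ErbBi and 7.75 CPM in untreated cells. SEMA4B (ENSDARG00000074414) had a ratio of 2.24 whose interval begins at 1.02, and its log2 ratio turned to -0.11 with the same class weights. The gene sema6ba had 6 UMIs in ErbBi and 9 in untreated cells, a ratio of 4.34 (1.27 to 13.6).

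The remaining well counted semaphorins did not differ by the rule. SEMA6C, another transmembrane form, stood at 56.6 CPM in ErbBi and 48.7 CPM in untreated cells, sema4ab at 20.7 CPM in ErbBi and 22.1 CPM in untreated cells, and SEMA4C at 11.7 CPM in ErbBi and 7.32 CPM in untreated cells. SEMA6C nevertheless differed among classes: in the untreated library it was 120.0 CPM in melanoblast-like cells and 25.5 CPM in the other cells, and in the ErbBi library it was highest, among classes of at least 30 cells, in cluster 7 at 102.9 CPM. Within mesenchyme-like cells SEMA6C was called higher, at 54.3 CPM in ErbBi and 20.7 CPM in untreated cells (ratio 2.63, 1.37 to 5.20). As a family the semaphorins summed to 196 CPM in ErbBi and 167 CPM in untreated cells, a ratio of 1.17 that fell below 1 (0.991) with median-of-ratios scaling.

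Neuropilins, the co-receptors for secreted semaphorins, were not called in either direction, beside 12.3% of all genes called higher and 2.71% called lower. NRP2 (ENSDARG00000096546) had 39 ErbBi UMIs (35.0 CPM) and 205 untreated UMIs (28.3 CPM), and the second NRP2 gene (ENSDARG00000038446) stood at 20.7 CPM in ErbBi and 12.6 CPM in untreated cells. NRP1 (ENSDARG00000102153) was at 4.49 CPM in ErbBi and 4.70 CPM in untreated cells. Their intervals all hold 1. In the untreated library both NRP2 genes were highest in cluster 3, at 64.4 CPM against 23.3 CPM in the other cells for ENSDARG00000096546 and 24.8 CPM against 10.9 CPM in the other cells for ENSDARG00000038446. Melanoblast-like cells held 15.1 CPM of ENSDARG00000096546 and 6.73 CPM of ENSDARG00000038446. The untreated class with the highest SEMA3F (ENSDARG00000011163) level was cluster 7, and its interval overlaps that of cluster 4 (103.8 CPM). In untreated cluster 7 NRP2 (ENSDARG00000096546) was at 43.2 CPM, with 6 of its 17 UMIs in 1 cell. The second NRP2 gene (ENSDARG00000038446) was at 7.62 CPM there, from 3 UMIs.

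Plexins, the signalling receptors for semaphorins, summed to 127.6 CPM in ErbBi and 70.7 CPM in untreated cells, a ratio of 1.80 (1.49 to 2.18). PLXNA3, a receptor for class 3 semaphorins, was called higher, with 24 UMIs (21.6 CPM) in ErbBi and 42 UMIs (5.80 CPM) in untreated cells, a ratio of 3.72 (2.15 to 6.28). PLXNA1 (ENSDARG00000105452) was at 14.4 CPM in ErbBi and 5.39 CPM in untreated cells, a ratio of 2.67 (1.39 to 4.89). PLXNA2 had 15 ErbBi and 10 untreated UMIs, a ratio of 9.76 (4.10 to 24.3). Thus 3 of 9 plexins were called higher, beside 12.3% of all genes. The other 6 plexins were not called, among them PLXNA4, at 26.1 CPM in ErbBi and 19.6 CPM in untreated cells, PLXNB1 (ENSDARG00000075821), at 12.6 CPM in ErbBi and 10.4 CPM in untreated cells, and PLXNA1 (ENSDARG00000114823), at 15.3 CPM in ErbBi and 9.11 CPM in untreated cells. PLXNA4 was highest in neural tube-like cells (40.3 CPM) and cluster 3 (38.4 CPM) of the untreated library and in cluster 3 (67.6 CPM) of the ErbBi library. In each library the interval of its highest class overlaps that of the next. The receptor plxnb3 was called higher in untreated melanoblast-like cells, at 12.9 CPM against 3.66 CPM in the other cells.

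Ephrins, the membrane-bound ligands of Eph receptors, were called higher for 3 of 9 genes and lower for none. The same rule called 12.3% of all genes higher and 2.71% lower. EFNA5 had 37 UMIs (33.2 CPM) in ErbBi cells and 84 UMIs (11.6 CPM) in untreated cells, a ratio of 2.87 (1.89 to 4.27). EFNA2 (ENSDARG00000031372) was at 11.7 CPM in ErbBi and 5.11 CPM in untreated cells (ratio 2.29), and EFNB2 (ENSDARG00000074050) at 12.6 CPM in ErbBi and 3.04 CPM in untreated cells (ratio 4.14). Within mesenchyme-like cells neither was called. The ratio there was 0.833 (0.219 to 2.77) for EFNA2 (ENSDARG00000031372) and 3.5 (0.799 to 21.0) for EFNB2 (ENSDARG00000074050). The more abundant EFNB2 gene (ENSDARG00000020164) did not differ by the rule, at 25.2 CPM in ErbBi and 21.1 CPM in untreated cells. In untreated cells EFNA5 was concentrated in cluster 3 (38.4 CPM), the mesenchyme-like class (24.5 CPM) and cluster 9 (23.0 CPM), with 2 UMIs or 1.12 CPM in 217 melanoblast-like cells. The mesenchyme-like class carried 54.3 CPM of EFNA5 in ErbBi and 24.5 CPM in untreated cells, a ratio of 2.21 (1.19 to 4.19). With the same class weights in both libraries the log2 ratio of EFNA5 was 0.71 and it was no longer called. EFNA3 had 2 UMIs in ErbBi and 46 in untreated cells, a ratio of 0.283 (0.0333 to 1.08), and was not called.

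Other ephrins marked other classes of the untreated library. EFNA3 was the member that stood out most from the other cells in melanoblast-like cells, at 16.3 CPM against 3.11 CPM in the other cells. The interval of EFNA3 there overlaps that of the next class, cluster 4 (9.16 CPM). EFNA1 (ENSDARG00000018787) was at 69.1 CPM in neural tube-like cells and 2.69 CPM in the others, and EFNA2 (ENSDARG00000031372) at 28.8 CPM in neural tube-like cells and 4.53 CPM in the others. The EFNA1 value rests on 12 UMIs. The interval of EFNA2 (ENSDARG00000031372) there overlaps that of the next class, mesenchyme-like cells (11.6 CPM). The neural tube-like cells also held retina markers, at 34.8 CPM in ErbBi and 1088 CPM in untreated cells, and 189 of the 284 retina marker UMIs of the untreated library lay in this class. Their part in the levels given for neural tube-like cells was not tested.

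Eph receptors were sparse, with 36 class A UMIs and 43 class B UMIs in the ErbBi library and 76 class A and 191 class B UMIs in the untreated library. The class A receptors summed to 32.3 CPM in ErbBi and 10.5 CPM in untreated cells, a ratio of 3.08 (2.01 to 4.64), and 1.6 with the same class weights. Neural tube-like cells held 11 of those ErbBi UMIs and 10 of the untreated ones. The receptor epha7 had 18 UMIs (16.2 CPM) in ErbBi and 25 UMIs (3.45 CPM) in untreated cells, a ratio of 4.68 (2.41 to 8.94). EPHA4, with 9 UMIs in ErbBi and 18 in untreated cells, had a ratio of 3.25 (1.29 to 7.63). Of the class B receptors, ephb4b was called higher, at 16.2 CPM in ErbBi and 7.32 CPM in untreated cells, a ratio of 2.21 (1.22 to 3.83), and EPHB3 was at 10.8 CPM in ErbBi and 10.5 CPM in untreated cells. Untreated cluster 6 held 15.9 CPM of ephb4b, its highest class, and 20.7 CPM of EPHB3, which was higher still in neural tube-like cells (28.8 CPM). For both genes the intervals of the highest and the next class overlap. Within mesenchyme-like cells the ratio of ephb4b was 1.65 (0.636 to 4.33), and ephb4b was not called there. ErbBi cluster 6 held 0 CPM of erythroid and 22.9 CPM of muscle markers. Untreated cluster 6 held 4415 CPM of erythroid and 1041 CPM of muscle markers. The part of these markers in the levels of ephb4b and EPHB3 was not tested.

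**Figure D2:**
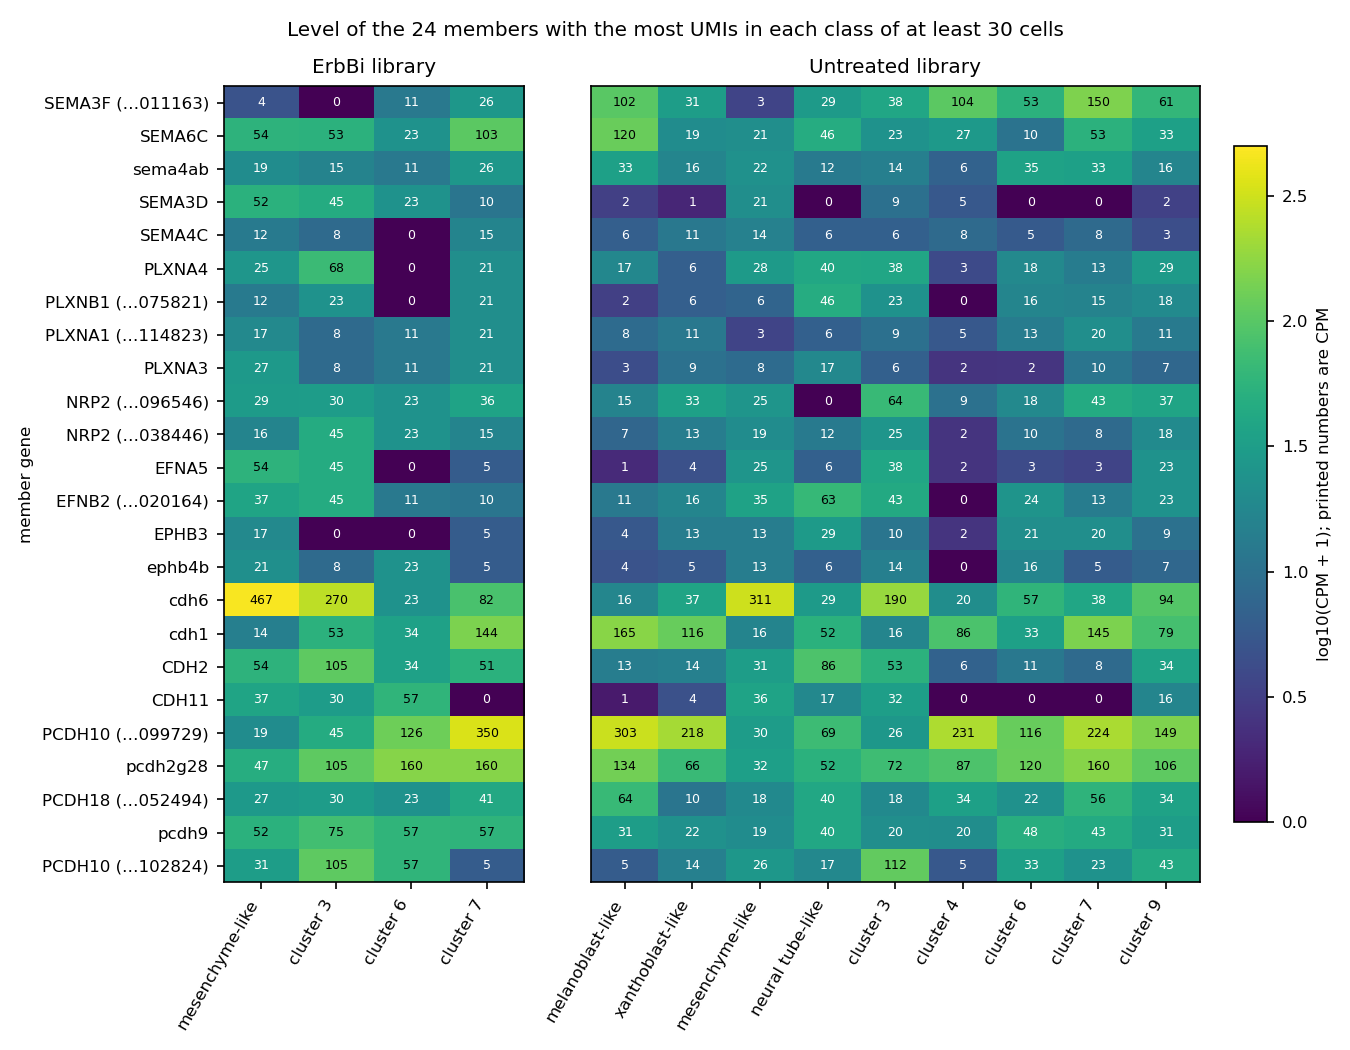
Level of the 24 members with the most UMIs, one line each, in every class of at least 30 cells, in the ErbBi library (left) and the untreated library (right); colour is log10(CPM + 1) and the printed figure is CPM. In both libraries cdh6 is brightest in mesenchyme-like cells and cluster 3, while cdh1 and PCDH10 (ENSDARG00000099729) are dim in mesenchyme-like cells and bright in cluster 7.

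Among the classical cadherins, cdh6 and cdh1 had their highest levels in different classes. The cadherin cdh6, present in early crest cells of several vertebrates, had 313 UMIs in 152 ErbBi cells and 629 UMIs in 286 untreated cells. Its level was 281 CPM (251 to 314) in the ErbBi library and 86.9 CPM (80.2 to 93.9) in the untreated library. The ratio was 3.24 (2.82 to 3.71). In the mesenchyme-like class, which made up more of the ErbBi library, cdh6 was at 467 CPM in ErbBi and 311 CPM in untreated cells, with 241 UMIs in each and a ratio of 1.5 (1.25 to 1.80). In cluster 3 it was at 270.5 CPM in ErbBi and 189.7 CPM in untreated cells, a ratio of 1.43 (0.966 to 2.05). Neither passed 2-fold. In cluster 7 it was at 82.3 CPM in ErbBi and 38.1 CPM in untreated cells, a ratio of 2.16 whose interval begins at 1.0, and it was not called there. With the same class weights the log2 ratio was 0.53, beside 1.69 over all cells. Without the mesenchyme-like class it was 1.01, and cdh6 was still called.

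E-cadherin, cdh1, the main epithelial cadherin, followed the pigment classes. It had 66 UMIs (59.3 CPM) in 45 ErbBi cells and 657 UMIs (90.7 CPM) in 371 untreated cells, a ratio of 0.654 (0.4995 to 0.843) that is under 2-fold and was not called. In the untreated library cdh1 was at 165 CPM in melanoblast-like cells, 144.9 CPM in cluster 7 and 116 CPM in xanthoblast-like cells, and at 15.5 CPM in mesenchyme-like cells and 15.8 CPM in cluster 3. In the ErbBi library it was at 144.1 CPM in cluster 7 and 13.6 CPM in mesenchyme-like cells. Its level inside cluster 7 thus differed little between the libraries, with a ratio of 0.995 (0.609 to 1.59). Cluster 3 was the exception, with 7 UMIs (52.6 CPM) in ErbBi and 14 UMIs (15.8 CPM) in untreated cells, a ratio of 3.33 (1.14 to 8.81). Of the 7 ErbBi UMIs, 2 lay in 1 cell. Epidermis markers in cluster 3 were at 1225 CPM in ErbBi and 997 CPM in untreated cells. Macrophage markers were at 909 CPM in ErbBi and 38.4 CPM in untreated cells. The part of either list in the cdh1 level was not tested.

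Few cells held both cdh1 and cdh6 transcripts. After each cell was thinned to 1900 UMIs, 4 ErbBi cells held both cdh1 and cdh6, out of 25 with cdh1 and 94 with cdh6 among 280 cells. In the untreated library 10 cells held both, out of 133 with cdh1 and 116 with cdh6 among 946. Of the cells with cdh1, 16.0% in the ErbBi library and 7.52% in the untreated library also held cdh6. In each library this is below the share of all cells with cdh6. These shares rest on 4 ErbBi and 10 untreated cells with both, and no interval was computed for them. Of the cells with CDH11, the share that held cdh6 was also below the share of all cells in each library. Yet CDH11 and cdh6 both had their highest untreated level in mesenchyme-like cells. Of the cells with CDH2, the share with cdh6 was above it in each library. Whether cdh1 and cdh6 lie in separate cells is therefore not read from these shares. The part of free RNA in the cells with both cdh1 and cdh6 was not tested. The share of all cells with cdh6 was 33.6% of thinned ErbBi cells and 12.3% of thinned untreated cells (43.7% in ErbBi and 28.6% in untreated cells before thinning). In the mesenchyme-like class it was 50.8% (41.7 to 59.8) in ErbBi and 41.8% (30.8 to 53.4) in untreated cells, and the intervals overlap. For cdh1 the thinned share was 8.93% in ErbBi and 14.1% in untreated cells (12.9% in ErbBi and 37.1% in untreated cells before thinning). Untreated mesenchyme-like cells, at a median of 9557.5 UMIs, gave a thinned cdh1 share of 3.80%, and melanoblast-like cells, at 8627 UMIs, a share of 26.2%.

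The melanoblast marker list stood in untreated mesenchyme-like cells at 7.56% of its level in melanoblast-like cells. The same figure was 9.40% for cdh1 and 9.81% for PCDH10 (ENSDARG00000099729), and 17.2% for SEMA6C and 2.55% for SEMA3F (ENSDARG00000011163). Whether the low cdh1 and PCDH10 (ENSDARG00000099729) levels in mesenchyme-like cells come from free RNA or from the cells themselves was not tested. In the ErbBi library the mesenchyme markers were also spread wider: they were at 684 CPM in ErbBi and 211 CPM in untreated cells of cluster 3, and at 597 CPM in ErbBi and 88.9 CPM in untreated cells of cluster 7. SEMA3D, which was highest in mesenchyme-like cells of both libraries, was called higher in ErbBi cells of cluster 3, at 45.1 CPM in ErbBi and 9.03 CPM in untreated cells, and the part of the mesenchyme markers in this was not tested.

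N-cadherin, CDH2, which crest and neural cells carry, was called higher over all cells, with 67 UMIs (60.2 CPM) in ErbBi and 168 UMIs (23.2 CPM) in untreated cells, a ratio of 2.60 (1.93 to 3.46). It stayed called with the same class weights, at a log2 ratio of 1.14. CDH2 was highest in neural tube-like cells of the untreated library (86.4 CPM) and next in cluster 3 (53.1 CPM), and in the ErbBi library cluster 3 held 105.2 CPM. CDH11, a cadherin of mesenchymal cells that takes part in crest migration in frog embryos, had 34 UMIs (30.5 CPM) in ErbBi and 78 UMIs (10.8 CPM) in untreated cells, a ratio of 2.84 (1.84 to 4.29). Inside the mesenchyme-like class CDH11 stood at 36.8 CPM in ErbBi and 36.2 CPM in untreated cells, a ratio of 1.02 (0.537 to 1.89). With the same class weights its log2 ratio was 0.55 and it was not called. The member with the highest ratio over the other untreated cells in xanthoblast-like cells was cdh18a, at 27.8 CPM against 2.60 CPM.

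**Figure D3:**
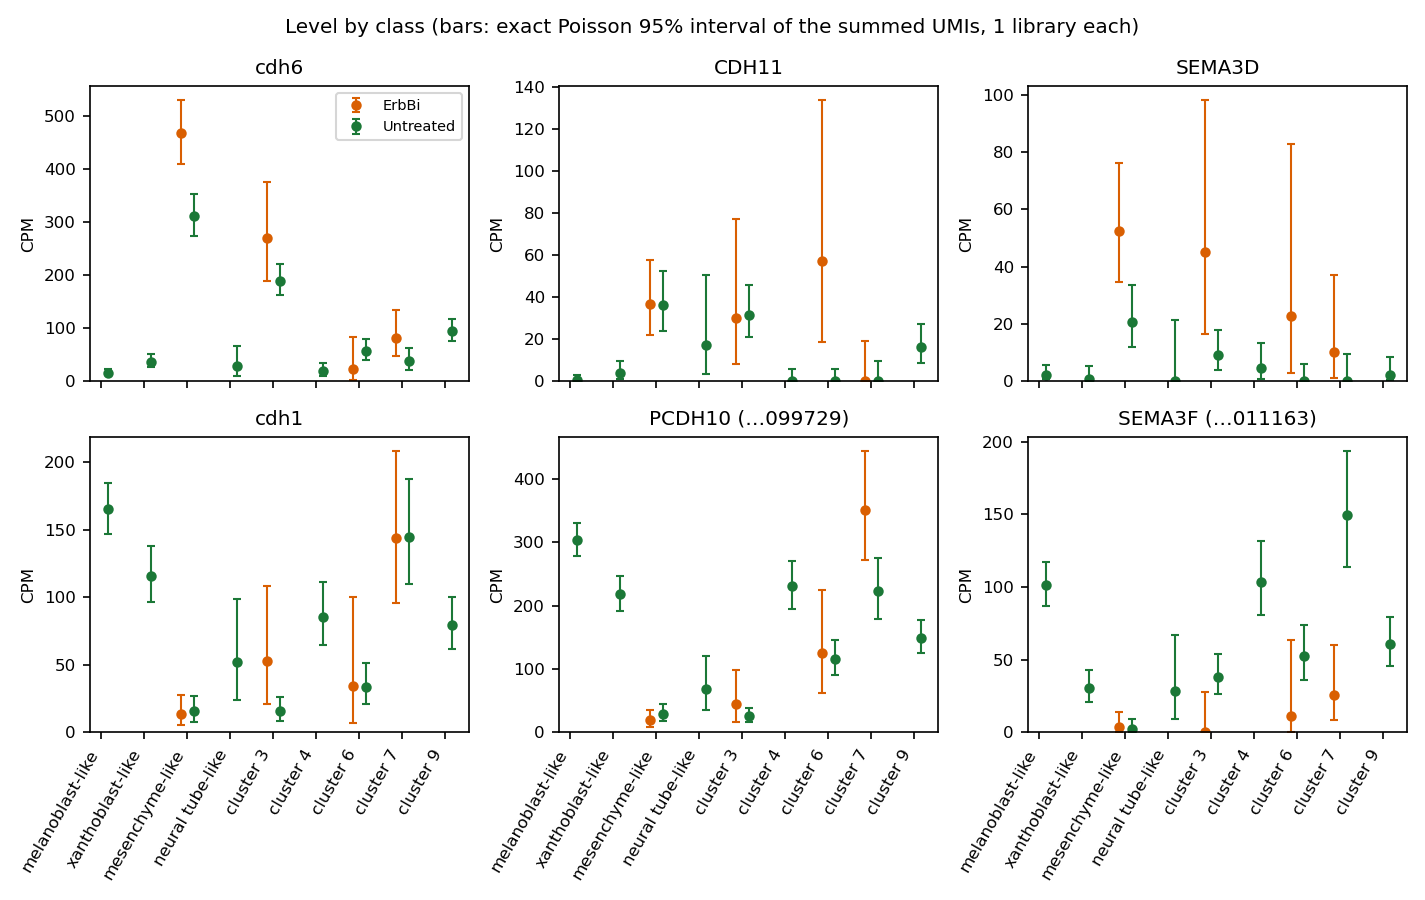
CPM of 6 members in each class of at least 30 cells, ErbBi points left of untreated points; bars are exact Poisson 95% intervals of the summed UMIs of 1 library each. In the untreated library the upper 3 panels peak in mesenchyme-like cells (cdh6 at 311 CPM, CDH11 at 36.2 CPM, SEMA3D at 20.7 CPM), and the lower 3 are near their lowest in that class and peak in melanoblast-like cells or cluster 7.

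Protocadherins differed in the class where each was highest. The gene with the most UMIs of all members was PCDH10 (ENSDARG00000099729), with 127 UMIs (114 CPM) in ErbBi cells and 1275 UMIs (176 CPM) in untreated cells, a ratio of 0.648 (0.536 to 0.778) that was not called. In the untreated library it was at 303 CPM in melanoblast-like cells, 231 CPM in cluster 4, 224 CPM in cluster 7 and 218 CPM in xanthoblast-like cells, against 26.0 CPM in cluster 3 and 29.7 CPM in mesenchyme-like cells. In ErbBi cells it was at 350 CPM in cluster 7 and 19.4 CPM in mesenchyme-like cells. The other PCDH10 gene (ENSDARG00000102824) had the opposite place, at 112 CPM in untreated cluster 3 and 18.4 CPM in the other cells, with 5.05 CPM in melanoblast-like cells and 105.2 CPM in ErbBi cluster 3. Over all cells it was at 38.6 CPM in ErbBi and 29.8 CPM in untreated cells and was not called.

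Of the other protocadherins, pcdh2g28 stood at 97.0 CPM in ErbBi and 95.8 CPM in untreated cells, a ratio of 1.01 (0.819 to 1.24). It is one of the clustered gamma protocadherins, whose transcripts share exons at the 3' end, so its UMIs can come from several genes of the cluster. PCDH18 (ENSDARG00000052494) was at 27.9 CPM in ErbBi and 34.7 CPM in untreated cells and was highest in untreated melanoblast-like cells, at 64.5 CPM against 24.9 CPM in the other cells. PCDH19, which in zebrafish acts with N-cadherin in the neural tube, was called higher, at 18.9 CPM in ErbBi and 5.80 CPM in untreated cells, a ratio of 3.25 (1.83 to 5.62). Neural tube-like cells carried much of it, with 10 of its 21 ErbBi UMIs and 13 of its 42 untreated UMIs. The ErbBi and untreated cells of that class differ in their markers, as given above. PCDH18 (ENSDARG00000089805) was at 11.7 CPM in ErbBi and 3.45 CPM in untreated cells (ratio 3.38). Mesenchyme-like cells held 11 of its 13 ErbBi UMIs and 8 of its 25 untreated UMIs. Within that class its ratio was 2.06 (0.756 to 5.91), and it was not called. PCDH1 was at 9.88 CPM in ErbBi and 4.42 CPM in untreated cells (ratio 2.24), and the PCDH1 log2 ratio turned to -0.29 with the same class weights. The protocadherins as a family had a ratio of 0.964 (0.867 to 1.07) over all cells and 1.30 with the same class weights, so their direction turned.

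Seen by class, members fell to cells in unequal numbers. In the untreated library, 18 of 60 members tested were called higher in cluster 3 than in the other cells, beside 10.2% of all genes. They included SEMA4B (ENSDARG00000074414), at 20.3 CPM against 2.20 CPM in the other cells, PCDH10 (ENSDARG00000102824), both NRP2 genes, EFNA5, CDH2, CDH11 and cdh6. Neural tube-like cells had 12 such members, beside 9.05%, and mesenchyme-like cells 10, beside 10.6%. Melanoblast-like cells had 6 (SEMA6C, plxnb3, EFNA3, cdh1, ENSDARG00000099729 of the PCDH10 genes and ENSDARG00000052494 of the PCDH18 genes), beside 7.89%, and 20 members were lower there, beside 14.8% of all genes. The 20 included cdh6, at 16.3 CPM against 109.9 CPM in the other cells, CDH11, at 0.561 against 14.1 CPM, and EFNA5, at 1.12 against 15.02 CPM. The counts were 1 in xanthoblast-like cells (2.67% of all genes), 0 in cluster 4 (2.79%), 3 in cluster 6 (3.59%), 1 in cluster 7 (1.52%) and 3 in cluster 9 (2.67%). Fewer members were lower in the remaining classes: 9 in xanthoblast-like cells (5.51% of all genes), 7 in mesenchyme-like cells (11.8%), 2 in neural tube-like cells (4.79%), 5 in cluster 3 (7.86%), 12 in cluster 4 (9.35%), 5 in cluster 6 (5.04%), 2 in cluster 7 (3.11%) and 0 in cluster 9 (1.68%). The depth of the classes differed, from a median of 3620 UMIs in neural tube-like to 10638 in cluster 9 cells, and its part in these counts was not tested. Untreated cluster 3 also held neural tube markers at 1513 CPM, the highest level after neural tube-like cells. It held 37 of the 54 endothelium marker UMIs of the untreated library. Epidermis markers were at 997 CPM there, the highest of the untreated classes, with 883 of the 1673 epidermis marker UMIs of that library. The part of these marker lists in its 18 calls was not tested.

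The ErbBi library was shallower, and 36 members could be tested in it. Mesenchyme-like cells had 4 members higher than the other ErbBi cells, beside 7.12% of all genes, namely cdh6 (467 CPM, against 120.6 CPM), EFNA5 (54.3 against 15.1 CPM), EFNB2 (ENSDARG00000020164; 36.8 against 15.1 CPM) and PCDH18 (ENSDARG00000089805; 21.3 against 3.35 CPM). Cluster 3 had 2, PLXNA4 and PCDH10 (ENSDARG00000102824), beside 3.09%. Cluster 7 had 3, SEMA6C, cdh1 and PCDH10 (ENSDARG00000099729), beside 8.43%, and these 3 are also among the 6 called in untreated melanoblast-like cells. Cluster 6 had 0, beside 2.54%. Members lower than in the other ErbBi cells numbered 5 in mesenchyme-like cells (10.6% of all genes), 1 in cluster 3 (2.64%), 1 in cluster 6 (1.61%) and 5 in cluster 7 (6.42%). Only 10 members had 30 UMIs over these 4 ErbBi classes, against 37 members over the untreated classes.

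**Figure D4:**
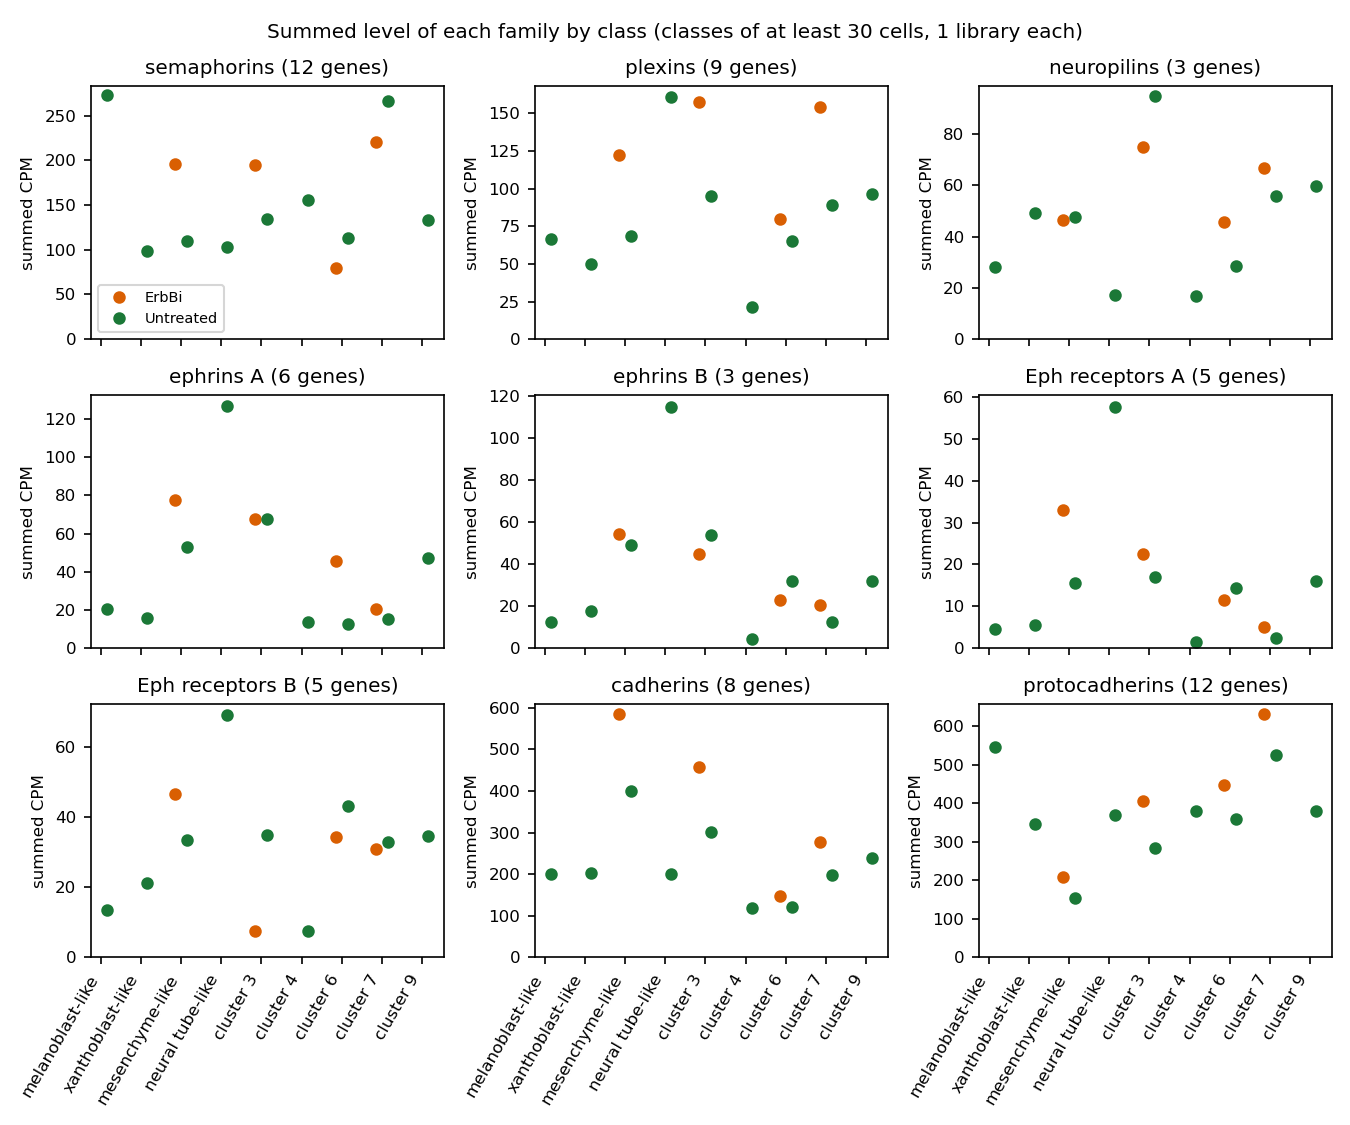
Summed CPM of each of the 9 families by class (classes of at least 30 cells; ErbBi points left of untreated points, 1 library each). Ephrins and Eph receptors are highest in neural tube-like cells of the untreated library, cadherins in mesenchyme-like cells of both (585 CPM in ErbBi, 399 CPM in untreated), and protocadherins in cluster 7 or melanoblast-like cells (633 CPM in ErbBi cluster 7, 546 CPM in untreated melanoblast-like cells).

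The libraries were also compared inside each class of at least 30 cells in both. Within mesenchyme-like cells, which clusters 5 and 8 supply in different parts, 31 members could be tested. Of these, 7 were higher in ErbBi cells (SEMA3D, SEMA6C, SEMA6D, PLXNA1 (ENSDARG00000114823), PLXNA3, EFNA5 and pcdh9), beside 6.51% of all genes, and 1 was lower, beside 1.13%. PLXNA1 (ENSDARG00000114823), which was not called over all cells, had 9 ErbBi and 2 untreated UMIs in this class, a ratio of 6.75 (1.40 to 64.2). The PLXNA1 gene called over all cells (ENSDARG00000105452) had 8 ErbBi and 3 untreated UMIs here, a ratio of 4.001 whose interval (0.960 to 23.4) holds 1. PLXNA3 was at 27.1 CPM in ErbBi and 7.75 CPM in untreated cells, a ratio of 3.50 (1.26 to 11.1), and pcdh9 was at 52.3 CPM in ErbBi and 19.4 CPM in untreated cells, a ratio of 2.7 (1.39 to 5.46). The lower one was plxnb2a.1, with 0 ErbBi and 10 untreated UMIs, and it was not called when the cell with most of its UMIs was left out. The median log2 ratio was 0.53 over the 31 members and 0.12 over all genes tested in that class. The cadherins cdh6, CDH2 and CDH11 were not among those called, with ratios of 1.5, 1.75 and 1.02.

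Within cluster 3, 5 of 26 members were higher in ErbBi cells (SEMA3D, SEMA6D, cdh1, pcdh9 and PCDH19), beside 4.87%, and 0 were lower, beside 2.15%. The largest count among them was pcdh9, with 10 UMIs (75.1 CPM) in ErbBi and 18 UMIs (20.3 CPM) in untreated cells, a ratio of 3.70 (1.53 to 8.45). ErbBi cells of cluster 3 also carried macrophage markers at 909 CPM, against 38.4 CPM in untreated cells, and epidermis markers at 1225 CPM in ErbBi and 997 CPM in untreated cells, and the part of either was not tested. Without the cell with the most UMIs of each gene, 3 of the 5 calls were left, and the share of all genes under that setting is not given here. Within cluster 6, 0 of 16 members were called in either direction, beside 3.83% higher and 1.1% lower.

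Within cluster 7, 1 of 14 members, CDH2, was higher in ErbBi cells, beside 6.17%, and 1, SEMA3F (ENSDARG00000011163), was lower, beside 1.96%. With the 63 genes among the clustering genes this cluster had too few untreated cells, 2 against 49 ErbBi cells, to be compared. CDH2 had 10 UMIs (51.5 CPM) in ErbBi and 3 UMIs (7.62 CPM) in untreated cells, a ratio of 6.75 (1.74 to 38.2). The cells of cluster 7 differed between the libraries in their melanin genes, as given above. Cells with over 1% of their UMIs in pmela, DCT and both TYRP1 genes, a class set after the clusters had been seen, numbered 64 in the ErbBi library (52 of them in cluster 7) and 404 in the untreated library (22 in cluster 7, 217 melanoblast-like and 132 in cluster 4).

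In these melanin-rich cells, cdh1 was at 152 CPM in ErbBi and 144 CPM in untreated cells, a ratio of 1.06 (0.714 to 1.52). PCDH10 (ENSDARG00000099729) was at 300.1 CPM in ErbBi and 268.5 CPM in untreated cells, a ratio of 1.12 (0.851 to 1.45), and SEMA6C at 109.6 CPM in ErbBi and 87.8 CPM in untreated cells, a ratio of 1.25 (0.777 to 1.91). The ratios of 0.654 and 0.648 that cdh1 and PCDH10 (ENSDARG00000099729) showed over all cells were not seen in these cells. SEMA3F (ENSDARG00000011163) was lower there too, at 47.6 CPM (10 UMIs) in ErbBi and 97.0 CPM (285 UMIs) in untreated cells, a ratio of 0.491 (0.233 to 0.917), which is nearer to 1 than in cluster 7. It was the 1 of 36 members tested that was called lower, beside 0.714% of all genes. The 6 called higher, beside 6.01%, were SEMA6D, PLXNB1 (ENSDARG00000075821), plxnb3, cdh6, CDH2 and PCDH1. Of these cdh6 was at 76.2 CPM in ErbBi and 30.6 CPM in untreated cells (ratio 2.49, 1.37 to 4.27), and CDH2 at 52.4 CPM in ErbBi and 17.0 CPM in untreated cells (ratio 3.08, 1.45 to 5.99). The other calls rest on few ErbBi UMIs: 3 for SEMA6D, 4 for PLXNB1 (ENSDARG00000075821), 4 for PCDH1 and 6 for plxnb3. The interval begins at 1.001 for SEMA6D and 1.016 for plxnb3. The mesenchyme markers summed to 643 CPM in ErbBi and 86.1 CPM in untreated cells of this class. Their part in the higher levels was not tested. The melanoblast markers summed to 31240 CPM in ErbBi and 34120 CPM in untreated cells.

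Other genes of the same pathways were taken from a list of guidance and adhesion genes, of which 68 of 85 had enough UMIs. Of the 68, 17 were called higher in ErbBi cells and 1 lower, with a median log2 ratio of 0.53, beside the 12.3% and 2.71% of all genes and their median of 0.24. The 8 catenins and partners that link cadherins to actin had 0 calls, with CTNNB1 (beta-catenin) at 410.5 CPM in ErbBi and 278 CPM in untreated cells, a ratio of 1.48 (1.33 to 1.64). Of the repellent slit ligands and their robo receptors 4 of 8 were higher, led by SLIT1 (ENSDARG00000044954), at 38.6 CPM in ErbBi and 4.42 CPM in untreated cells (ratio 8.74), and SLIT3, at 16.2 CPM in ErbBi and 3.18 CPM in untreated cells. Of the netrin group 3 of 7 were higher, including NEO1 (ENSDARG00000102855), a netrin receptor family member, at 39.5 CPM in ErbBi and 15.7 CPM in untreated cells. Among large cadherins FAT1 was at 84.4 CPM in ErbBi and 31.9 CPM in untreated cells (ratio 2.65). MMP2, a protease that cuts matrix, was at 45.8 CPM in ErbBi and 12.8 CPM in untreated cells (ratio 3.57). Of the semaphorin and ephrin effectors, the largest group, 3 of 23 were higher and 1 was lower. The other groups had 4 of 7 large cadherins, 1 of 6 chemokine genes, 1 of 5 adhesion genes and 1 of 4 proteases higher. All values of this list are over all cells, and the part of the unequal class shares in them was not tested. The 1 gene called lower was rnd2, of the Rnd family of small GTPases that interact with plexins, at 5.39 CPM in ErbBi and 12.8 CPM in untreated cells, a ratio of 0.420 (0.1502 to 0.949).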

How the data were processed

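Single cells were profiled with 10x Genomics 3' version 2 chemistry, 1 library per treatment, per the labels' protocols. The authors deposited UMI counts per gene and cell in an unfiltered and a filtered table, which was used here. FastQC 0.11.7, Cell Ranger 2.1.1 and build GRCz11 are named in the submitters' processing notes. The number that ends each cell name was matched to the number that ends a sample title, and this alone assigns cells to a treatment. The per-sample columns left unused numbered 0. The filtered table kept 348 of 497 ErbBi cells and 999 of 1022 untreated cells, and 0 of its values differed from the unfiltered table. Over the unfiltered table the libraries shared 75 barcodes.

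A name table gave symbols for 17967 gene entries (96.0%). Many are human-style, so the paralogue letter is not known, and the 20 members that share a symbol carry their Ensembl ID. No coordinates or sequences are given.

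Cells were scaled to 10000 UMIs, and 2000 variable genes without the members, 20 components, 15 neighbours and Leiden resolution 1 (scanpy 1.11.5, leidenalg 0.10.2, python-igraph 0.11.9) gave the clusters, with no batch correction. Scrublet marked 2 ErbBi and 7 untreated cells as doublets, which were kept. CPM has an exact Poisson interval, ratios an exact conditional binomial interval and shares a Clopper-Pearson interval (scipy 1.17.1), all 95% and for counting error only. Where 1 library had 0 UMIs of a gene, 3 counts stood in for it as a floor. The ratio is then a bound by that floor and not at the 95% level. Thinning to 1900 UMIs left out 68 ErbBi and 53 untreated cells. Genes needed 10 UMIs to be tested. With 1 library per treatment there is no test.

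Members named are the 24 with the most UMIs, those called over all cells with at least 30 UMIs, and the 3 highest and lowest called per class; others, such as sema6ba, PLXNA2, EPHA4, NRP1 and plxnb2a.1, were named after their values were seen. Members, gene lists and marker lists were chosen with earlier results of these data known. On simulated data for the comparison over all cells with 12261 genes, every 4-fold change set in 200 genes was called. Of the genes left alone 1.27% were called, and the interval held the true ratio for 96.9%. The simulated counts varied by counting error only, and the 200 genes were picked among those with more UMIs than most members have. Recovery for members with few UMIs, and spread between cells or libraries, were not tested. Alternatives covered scaling, cell weighting, filters, doublets, clustering and thinning.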

Additional observations from a re-analysis of the deposited data

How the results depend on the processing

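No paired analysis was possible because there is only 1 library for each group, and no replicate could be left out. The ErbBi library is shallow, so members with few UMIs can be called higher more readily than lower. Leaving out cells with shared barcodes, leaving out the mesenchyme-like class and thinning the untreated library were chosen after seeing the data. Weighting by class and averaging over cells used a normal interval on the log scale. The cause of the changes below was not tested. Clusters 7 and 9 had no match at resolution 0.5 and give no value there. With members among the clustering genes the match of cluster 7 held 49 ErbBi and 2 untreated cells, so its libraries could not be compared there, nor its untreated cells with the others.

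Over all cells, 19 members higher became 10 with the same class weights, 12 with the untreated library thinned to the ErbBi total (9.39% of all genes) and 30 of 130 with no minimum (10.3% of all genes), and the 1 lower became 2 with median-of-ratios scaling, 3 with a fold of 1.5 and 2 without the top cell of each gene. Median-of-ratios scaling raises the ErbBi total by a factor of 1.183 and so lowers every ErbBi ratio. It takes SEMA4B (ENSDARG00000074414), PCDH1, EFNA2 (ENSDARG00000031372) and ephb4b, with ratios of 2.21 to 2.29, under 2-fold. The count of members called higher under this scaling is not given here. The lower count in mesenchyme-like cells became 0 with a mean over cells and 0 without the top cell. In cluster 3 the 5 higher became 2 at resolution 1.5 and 3 without the top cell. In cluster 6 the 0 higher became 3 at resolution 0.5, and the 0 lower became 1 at resolution 0.5, with members among the clustering genes and with a mean over cells. In cluster 7 the 1 higher became 2 at resolution 1.5, with a mean over cells, without doublets and without the top cell. Here and below, a count without a share of all genes under its changed setting cannot be set against a background.

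Against the other cells, a minimum of 30 UMIs gave 2 members in ErbBi mesenchyme-like cells, 1 in ErbBi cluster 3, 6 in untreated mesenchyme-like cells and 7 in untreated neural tube-like cells. Without the top cell ErbBi cluster 3 had 1 and untreated cluster 7 had 2, which it also had without doublets. Untreated cluster 3 had 10 at resolution 1.5, and untreated cluster 4 had 8 at resolution 0.5. With members among the clustering genes ErbBi cluster 6 had 1 and untreated cluster 9 had 5. The shares of all genes under these settings are not given here, so no difference from the background is read from these counts.

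With median-of-ratios scaling the family ratio was 0.991 for semaphorins, 1.67 for cadherins and 0.815 for protocadherins. With the same class weights it was 0.991 for neuropilins, 0.986 for ephrins B, 1.6 for Eph receptors A, 0.880 for Eph receptors B, 1.46 for cadherins and 1.30 for protocadherins, and the log2 ratio was -0.11 for SEMA4B (ENSDARG00000074414) and -0.29 for PCDH1. Without the mesenchyme-like class it was 1.56 for cadherins and 1.24 for protocadherins. With a mean over cells the pathway list had 2 lower.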

Other observations

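Cells that the authors' filter left out also held members. The 149 ErbBi cells left out carried 106 member UMIs, or 1039 CPM (850 to 1256), and the 23 untreated cells left out carried 20, or 621 CPM (380 to 960). Of these cells, 57 in the ErbBi library and 13 in the untreated library have a barcode that is also found in the other library.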
